A study of Mus musculus with 14 samples.

Results

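Expression of 10 regulators of the hair germ and the hair matrix was followed across the 14 RNA sequencing libraries of the study. The genes were taken as a fixed list: Sostdc1, Sox4, Runx1, Vdr, Gata3, Hoxc13, Dlx3, Msx1, Msx2 and Foxn1. They are 10 of 34049 genes with any count, and all 10 passed the filter on low counts that left 24592 genes to test. The list was named for transcription regulators, and 9 of its genes encode transcription factors, whereas Sostdc1 encodes a secreted protein. The measured RNA came from mouse hair follicle stem cells, which were sorted from trypsin-digested back skin by CD34, a marker given as CD45f, and the absence of Ly-6A/E.

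The libraries were labelled as Irx5 knockout (Irx5KO, 3 at postnatal day 18, P18, and 4 at P20) or wild type (WT, 3 at P18 and 4 at P20). Irx5 encodes an Iroquois homeobox transcription factor. The sources used here do not give the strain or sex, the part of Irx5 that was removed or whether animals were pooled. Nothing in the labels ties each library to its own animal. The p-values below therefore reflect only how far libraries differ, which may be technical. A 6-digit code of unstated meaning in the deposited data divided each age: at P18 it set Irx5KO 1, WT 1 and WT 2 apart from Irx5KO 2, Irx5KO 3 and WT 3, and at P20 it set libraries 1 and 2 of both genotypes apart from libraries 3 and 4. P18 WT 3, WT by its title, has "het" in its deposited data.

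The targeted gene checked the labels first. In counts scaled to library size (CPM), Irx5 at P18 was 48.0, 70.6 and 73.4 under the Irx5KO label and 93.8, 109.6 and 132 under the WT label (exact two-sided permutation test, p = 0.1, the smallest possible with 3 against 3). In the P20 libraries 1 and 2 it was at 29.97 and 18.1 CPM under the Irx5KO label and at 108 and 93.5 CPM under the WT label. The P20 libraries 3 and 4 went against their labels, with 181 and 170.1 CPM under the Irx5KO label and 33.2 and 37.5 CPM under the WT label. Genotypes are therefore given below as labelled, and every P20 value is also given within libraries 1 and 2 and within libraries 3 and 4. Total estimated counts ran from 13618367 to 70083873 per library, with the smallest in P20 Irx5KO 3. Bulge markers were high in all 14 libraries (Krt15 at 4830 to 17220 CPM, Cd34 at 242 to 919 CPM). Genes of the olfactory and vomeronasal receptor families took 1.78%, 5.36% and 2.36% of the counts in P18 WT 1, P18 WT 2 and P20 WT 2, against at most 0.603% in the others. The Y-linked Ddx3y, chosen after its values were seen, was at 0.127 to 0.571 CPM in P18 Irx5KO 1, WT 1 and WT 2 and in both P20 libraries 1, and at 53.6 to 136 CPM in the other libraries. In bulk RNA, fewer cells of a type and less RNA per cell cannot be told apart.

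Hair follicles cycle between rest and growth. Growth starts when cells of the hair germ, which lies between the bulge and the dermal papilla, divide in answer to Wnt, Hedgehog and FGF signals and to a fall in BMP signals. Their descendants form the matrix at the base of the follicle, whose cells become the hair shaft and the inner root sheath. Sostdc1 binds and blocks BMP ligands and also modulates Wnt signals. Runx1 and Vdr are known to be needed for the timely start or renewal of the cycle, Gata3 for the inner root sheath, and Hoxc13, Foxn1, Dlx3, Msx1 and Msx2 for the differentiation of the shaft. Sox4 belongs to the SoxC group of factors found in many progenitor cells.

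Promoter stretches are shown for Sox4, the transcription factor of the list with the largest difference between the P20 library pairs, and for both starts of Runx1, whose transcripts are divided between them below. They come from RefSeq windows (GRCm38.p6), of which 8 matched 7 of the 10 genes, and the 250 bases before each start were searched and are shown as far as no annotated transcript begins in them. The Sox4 stretch is chr13:28953714-28953949, the far Runx1 start chr16:92826150-92826324 and the near Runx1 start chr16:92697330-92697579, all on the minus strand. Capitals mark matches to the CCAAT box, CCAAT on either strand (ATTGG on the strand shown).
Sox4: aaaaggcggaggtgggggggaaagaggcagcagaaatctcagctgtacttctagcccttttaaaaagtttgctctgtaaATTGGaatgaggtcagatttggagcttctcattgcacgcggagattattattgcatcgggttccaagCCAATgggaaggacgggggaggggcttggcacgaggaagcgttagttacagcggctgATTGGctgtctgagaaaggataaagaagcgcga
Runx1, far start: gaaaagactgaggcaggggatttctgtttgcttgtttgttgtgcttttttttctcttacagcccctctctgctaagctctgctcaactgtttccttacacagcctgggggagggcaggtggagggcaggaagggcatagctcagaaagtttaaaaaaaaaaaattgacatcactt
Runx1, near start: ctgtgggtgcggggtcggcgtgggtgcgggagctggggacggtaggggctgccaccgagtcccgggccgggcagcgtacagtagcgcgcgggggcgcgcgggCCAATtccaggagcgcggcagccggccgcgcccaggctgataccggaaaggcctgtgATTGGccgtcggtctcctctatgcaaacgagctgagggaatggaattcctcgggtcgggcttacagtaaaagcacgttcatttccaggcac
The 250 bases before the Sox4 start held 4 matches, 3 of them in the stretch shown, and 0.84% of 32851 windows of that length held at least 4. Both Runx1 windows held 2 matches, and 10.1% of windows held 2 or more. The matches of the far start lay outside the stretch shown. The windows of all 7 genes were also searched for E2F, CHR, GC box, TATA box, TCF/LEF and RUNX letters. Those of Sox4 and Runx1 held no match to these, and the shares are not adjusted for the number of searches. A match is a description of letters, not of a bound site.

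Levels of different genes were compared in TPM, the deposited unit that divides by transcript length. Over the 14 libraries the medians were 104 TPM for Gata3, 98.7 for Vdr, 64.8 for Runx1, 56.9 for Sostdc1, 14.6 for Sox4, 11.2 for Hoxc13, 10.5 for Dlx3, 5.35 for Msx1, 4.49 for Msx2 and 0.855 for Foxn1. Gata3, Vdr, Runx1 and Sostdc1 thus had medians well above those of the other 6 genes. Neighbours in this order overlapped widely: Gata3 ranged from 46.8 to 189 TPM and Vdr from 57.6 to 124 TPM. The Gata3 sums include short transcripts, for which few counts give a high TPM. In P20 Irx5KO 3, Gata3-205, of 243 bases, gave 75.4 of 154.6 TPM. The main coding transcript, Gata3-201, held 89.3% of the Gata3 counts but stood at 21.3 to 82.0 TPM, below the Vdr median in every library. The spread was largest for Foxn1, which had a single read in P20 Irx5KO 3, and for Sostdc1, at 19.9 to 431 TPM. Vdr varied least among the 10, from 254 to 425 CPM.

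**Figure D1:**
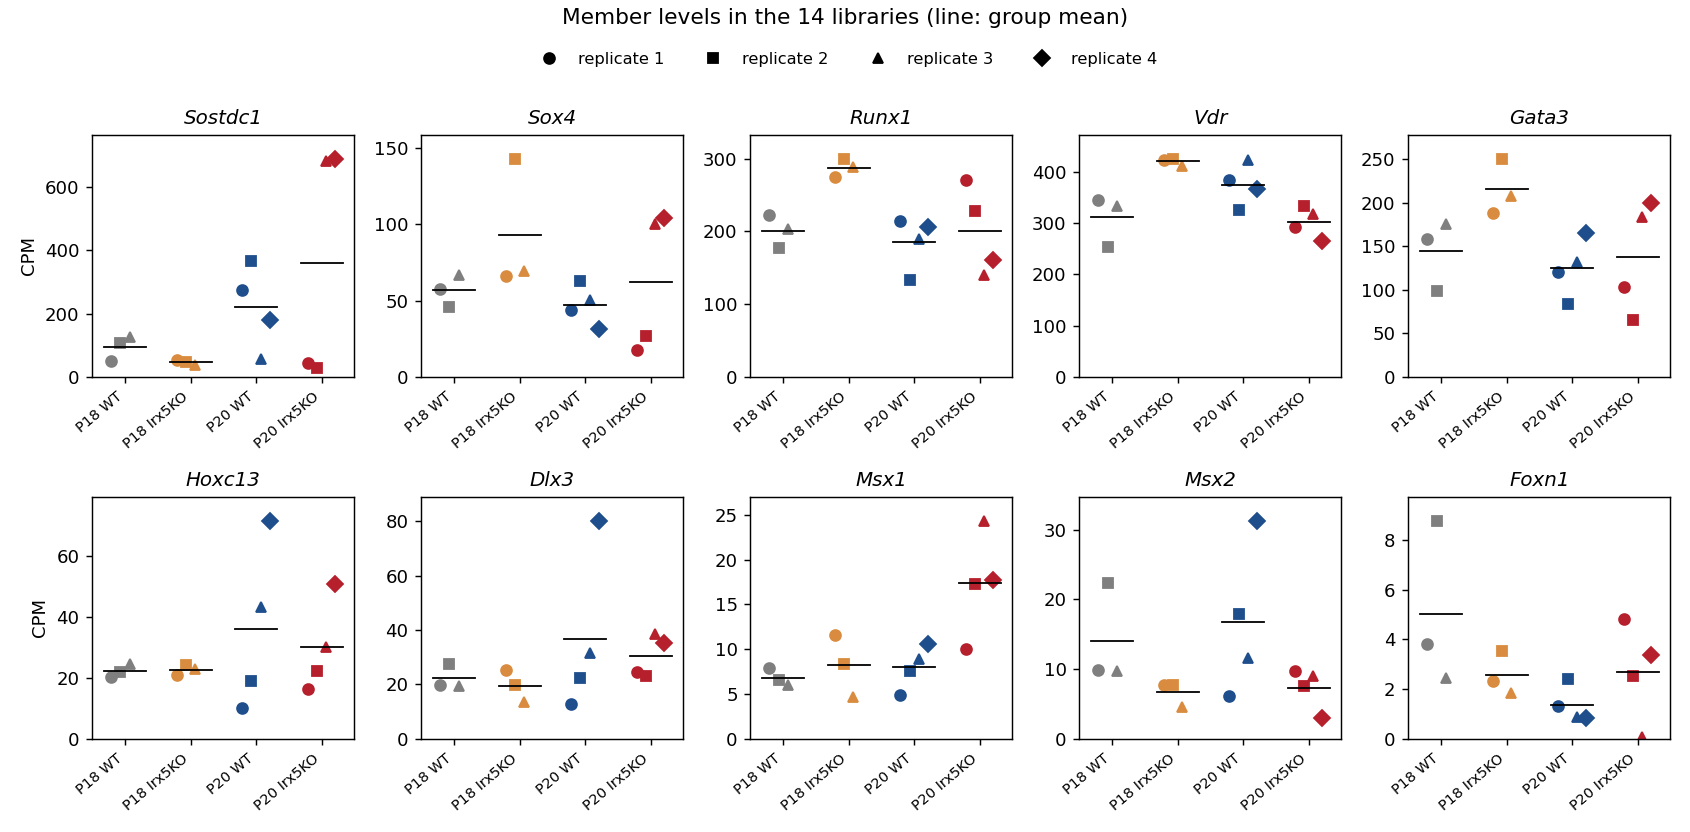
Level of each of the 10 genes in CPM (linear axes from 0) in every library, by age and labelled genotype, with the shape giving the replicate number and the line the group mean. Sostdc1 divides the P20 libraries of each genotype into high and low ones, and Sox4 only those labelled Irx5KO. Hoxc13 and Dlx3 are highest in P20 libraries 3 and 4 of both genotypes.

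Sostdc1 (ENSMUSG00000036169.6, mm10 chromosome 12, 36314139 to 36318452, plus strand), the BMP antagonist, differed most. Among the P18 libraries it stood at 55.1, 48.0 and 37.3 CPM under the Irx5KO label and at 51.7, 106.3 and 125 CPM under the WT label. These groups overlapped in 1 pair of values, and the log2 difference was -1.04 ± 1.15 (SE). At P20 its level was 43.8 and 29.0 CPM in Irx5KO 1 and 2 against 274 and 367 CPM in WT 1 and 2. The order was the opposite in the other pair, with 682 and 689 CPM in Irx5KO 3 and 4 against 57.5 and 181 CPM in WT 3 and 4. In P20, 3 libraries labelled WT and 2 labelled Irx5KO thus held more Sostdc1 than any P18 library.

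The difference of Sostdc1 passed the test in both pairs. Labelled Irx5KO was lower in libraries 1 and 2, at a mean of 36.4 against 320.1 CPM (log2 difference -3.14 ± 0.53, n = 2 each, adjusted p = 0.0277, edgeR quasi-likelihood test with Benjamini-Hochberg adjustment). In the other pair, labelled Irx5KO was 5.74 times higher, at 686 against 119 CPM (log2 difference 2.52 ± 0.52, n = 2 each, adjusted p = 0.0218, edgeR). The difference between the pairs was 5.66 ± 0.75 on the log2 scale (adjusted p = 0.00131, edgeR), and it passed with each of the 14 libraries left out in turn (highest adjusted p = 0.0102). The single-pair results were less firm. That of libraries 1 and 2 failed without any 1 of their 4 libraries and without P18 Irx5KO 2 or 3 or P20 Irx5KO 3 or 4 (log2 differences -3.46 to -2.87 over all omissions, highest adjusted p = 0.33), and that of libraries 3 and 4 failed without P18 Irx5KO 2 or P20 Irx5KO 3 or 4 (1.92 to 3.57, highest adjusted p = 0.0773).

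Sox4 (ENSMUSG00000076431.4, chromosome 13, 28948919 to 28953713, minus strand) followed the same order at P20. Its level was 17.8 and 26.8 CPM in Irx5KO 1 and 2 against 43.6 and 63.0 CPM in WT 1 and 2. It was 99.9 and 103.9 CPM in Irx5KO 3 and 4 against 50.0 and 31.5 CPM in WT 3 and 4. Neither pair overlapped, and the labelled genotypes changed places between them. The log2 difference was -1.26 ± 0.36 in libraries 1 and 2, which did not pass (adjusted p = 0.205, edgeR), and 1.32 ± 0.36 in libraries 3 and 4, which did (adjusted p = 0.0466, edgeR). The difference between pairs was 2.58 ± 0.50 (adjusted p = 0.00592, edgeR) and passed with every library left out in turn (2.28 to 2.95, highest adjusted p = 0.0425). The value of libraries 3 and 4 was near the threshold: it failed without any 1 of the 4 P20 Irx5KO libraries or without P20 WT 3 or 4 (1.02 to 1.69, highest adjusted p = 0.321). At P18 Sox4 was at 66.2, 143 and 69.6 CPM under the Irx5KO label and at 57.8, 45.9 and 66.4 CPM under the WT label, with 1 high library, Irx5KO 2.

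Runx1 (ENSMUSG00000022952.17, chromosome 16, 92601466 to 92826149, minus strand) was also ordered in opposite ways in the P20 pairs, without overlap, but the other way round from Sostdc1 and Sox4. It stood at 270.4 and 229 CPM in Irx5KO 1 and 2 against 214 and 134 CPM in WT 1 and 2. In Irx5KO 3 and 4 it was at 140.4 and 161 CPM, against 189.8 and 206 CPM in WT 3 and 4. The difference between the pairs was -0.92 ± 0.37 and did not pass (adjusted p = 0.212, edgeR). Leaving out P20 WT 1 took it past the threshold, at -1.30 (adjusted p = 0.0457, edgeR). In all, 3 of the 10 genes (Sostdc1, Sox4 and Runx1) had no overlap in either pair and opposite orders, as did 12.5% of all genes tested.

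**Figure D2:**
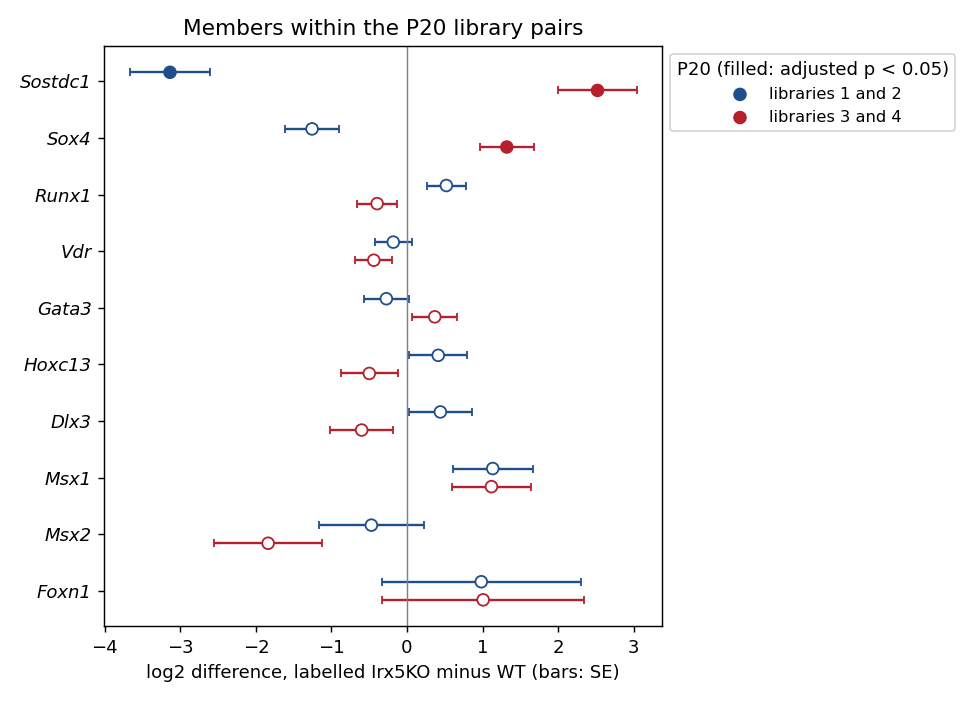
Log2 difference of labelled Irx5KO from labelled WT at P20 for the 10 genes, in libraries 1 and 2 (blue) and in libraries 3 and 4 (red), n = 2 against 2 each, with the SE as bars and filled points past an adjusted p of 0.05. Sostdc1 lies at -3.14 and 2.52 and Sox4 at -1.26 and 1.32, on opposite sides of 0, whereas Msx1 lies at 1.14 and 1.12.

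Division genes changed order between the P20 pairs as Sostdc1 and Sox4 did. The division gene Mki67 was at 429, 228, 1252 and 1418 CPM in P20 WT 1, WT 2, Irx5KO 3 and Irx5KO 4, and at 3.75 to 36.5 CPM in the other 10 libraries. The summed level of 10 division genes was 513 to 2803 CPM in those same 4 libraries and 14.8 to 196 CPM elsewhere. All 10 were lower under the Irx5KO label in libraries 1 and 2, where 5 passed the test, and all 10 were higher in libraries 3 and 4, where 9 passed. Sostdc1 was at or above 274 CPM in these 4 libraries and at or below 181 CPM in the other 10. Sox4 was not ordered in that way, since P18 Irx5KO 2, at 22.7 CPM of Mki67, had its highest level. It was at 43.6, 63.0, 99.9 and 103.9 CPM in P20 WT 1, WT 2, Irx5KO 3 and Irx5KO 4. These values lay within or below the 45.9 to 143 CPM of the P18 libraries. Irx5 itself was also higher in the 4 libraries than in the other 4 of P20. The part of division, or of the labels, in the differences of Sostdc1 and Sox4 was not tested.

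**Figure D3:**
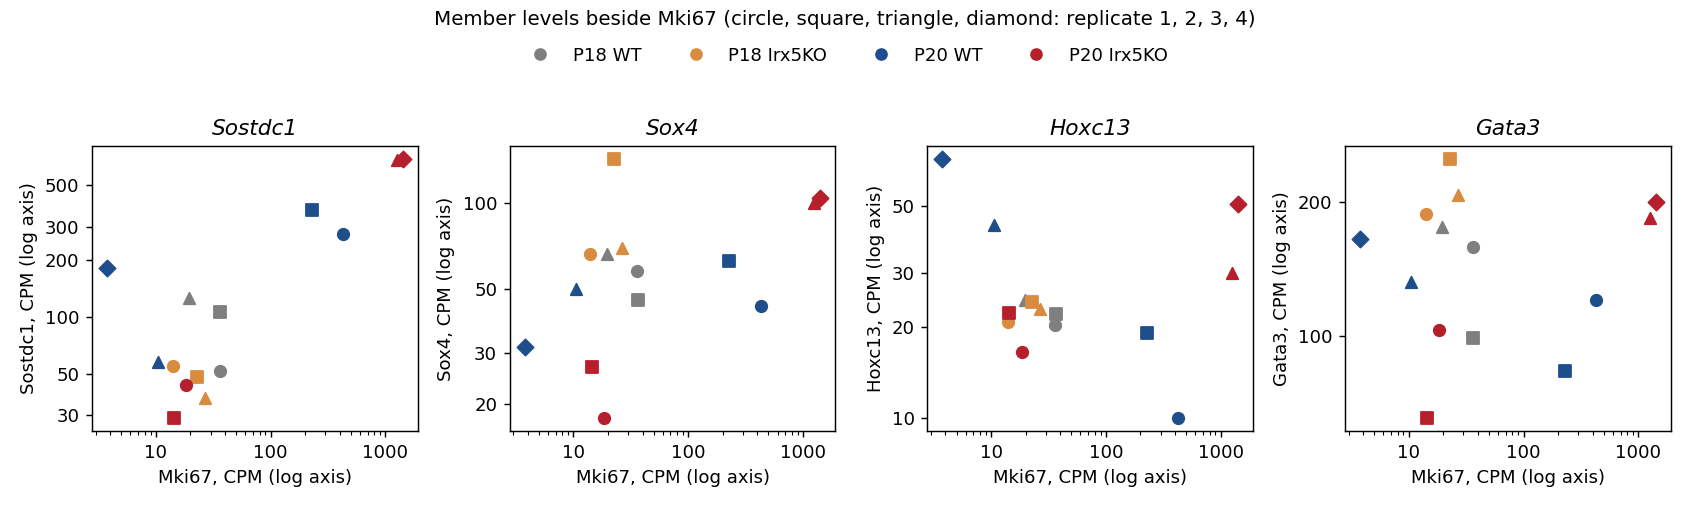
Level of Sostdc1, Sox4, Hoxc13 and Gata3 against that of Mki67 in CPM in the 14 libraries, both axes logarithmic, with colour for age and labelled genotype and shape for the replicate number. The 4 libraries with Mki67 at or above 228 CPM hold the highest Sostdc1 levels, while Hoxc13 is high both at 3.75 and at 1418 CPM of Mki67.

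Vdr (ENSMUSG00000022479.15, chromosome 15, 97854425 to 97910630, minus strand), the vitamin D receptor, was among the most even of the genes. It was at 424, 425 and 412 CPM in P18 Irx5KO 1, 2 and 3 and at 345, 254 and 334 CPM in WT 1, 2 and 3. Gata3 (ENSMUSG00000015619.10, chromosome 2, 9857078 to 9890034, minus strand) was at 188, 249.9 and 207 CPM against 158, 98.7 and 175 CPM in the same groups, and Runx1 at 275, 299.5 and 289 CPM against 222, 177 and 203 CPM. In each of the 3 genes every P18 library labelled Irx5KO lay above every one labelled WT. Msx2 was the reverse, with 7.76, 7.75 and 4.49 CPM against 9.86, 22.4 and 9.71 CPM. The log2 differences were 0.41 ± 0.22 for Vdr, 0.47 ± 0.28 for Gata3, 0.50 ± 0.27 for Runx1 and -0.86 ± 0.65 for Msx2 (n = 3 each).

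None of the 10 genes passed the test at P18. The edgeR test called 0 of 24592 genes (0%), with 977 genes and 0 of the 10 at an unadjusted p under 0.05, while DESeq2 called 23 genes and 0 of the 10. The 4 genes without overlap compare with 23.4% of all genes tested that had none. The median log2 difference of the 10 was 0.177, against -0.546 over all genes tested and -0.003 over those with a mean of at least 8 CPM. The lowest P18 value of Vdr, Gata3 and Runx1 was in each case that of WT 2, the library with the largest receptor share. WT 2 also had 1408 CPM of summed T cell markers, against 318 to 519 CPM in the other P18 libraries. Thy1 alone gave 1231 CPM of that sum. Of the other markers, Cd3d (40.1 CPM) was at its highest P18 level in WT 2 and Rora (77.4 CPM) at its lowest. The part of the receptor share and of these markers in the order of Vdr, Gata3 and Runx1 was not tested.

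Over the whole of P20 the labelled genotypes did not differ for any of the 10 in the edgeR test, which called 0 of 24592 genes (0%). Unadjusted p-values under 0.05 were found for 1082 genes and for 2 of the 10, Msx1 and Msx2, while DESeq2 called 104 genes and 0 of the 10. Sostdc1 and Sox4 averaged out, at -0.31 ± 1.48 and 0.03 ± 0.50. Without libraries 3 and 4, whose Irx5 level went against the labels, the same comparison rested on libraries 1 and 2 and called 119 genes, among them Sostdc1 (-3.14, adjusted p = 0.00623, edgeR). Within libraries 1 and 2 the test over all 14 libraries called 1 of the 10, where it called 0.655% of all genes. Within libraries 3 and 4 it called 2 of the 10, against 4.83% of all genes. For the difference between the pairs it called the same 2, against 5.18% of all genes. The medians of the 10 were 0.116, -0.0139 and -0.137. Markers of suprabasal epidermis summed to 5838 CPM in P20 Irx5KO 1 and to 797 to 2099 CPM in the other libraries, and their part in the values of libraries 1 and 2 was not tested.

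Among the homeobox genes of the matrix, Msx1 (ENSMUSG00000048450.10, chromosome 5, 37820485 to 37824583, minus strand) kept 1 order at P20. It stood at 10.1 and 17.2 CPM in Irx5KO 1 and 2 against 4.86 and 7.58 CPM in WT 1 and 2. In the other pair it stood at 24.3 and 17.7 CPM in Irx5KO 3 and 4 against 8.85 and 10.5 CPM in WT 3 and 4. Labelled Irx5KO was thus 2.2 times higher in libraries 1 and 2 and 2.17 times in libraries 3 and 4, by 1.14 ± 0.53 and 1.12 ± 0.53 on the log2 scale. Such an order, without overlap in either pair, was found for 1 of the 10 genes and for 1.1% of all genes tested. Over the whole of P20 the log2 difference was 1.13 ± 0.37 (adjusted p = 0.826, edgeR), so it did not pass. Msx1 rested on 174 to 577 counts per P20 library.

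Msx2 (ENSMUSG00000021469.9, chromosome 13, 53466884 to 53473074, minus strand), its close relative, tended the other way. It was at 9.75 and 7.56 CPM in Irx5KO 1 and 2 against 6.18 and 17.9 CPM in WT 1 and 2, which overlapped. In Irx5KO 3 and 4 it was at 9.07 and 2.93 CPM against 11.6 and 31.3 CPM in WT 3 and 4. The log2 difference over P20 was -1.15 ± 0.53 (adjusted p = 0.826, edgeR), and that of libraries 3 and 4 was -1.84 ± 0.72 (adjusted p = 0.186, edgeR). Foxn1 (ENSMUSG00000002057.4, chromosome 11, 78357577 to 78386558, minus strand), the factor lost in nude mice, was the lowest of the 10, at 0.0690 to 8.78 CPM. Its highest level was in P18 WT 2 and its lowest, 1 read, in P20 Irx5KO 3.

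Hoxc13 (ENSMUSG00000001655.6, chromosome 15, 102921103 to 102928814, plus strand) and Dlx3 (ENSMUSG00000001510.8, chromosome 11, 95120119 to 95125296, plus strand) followed the library pair and not the label. Hoxc13 was at 16.4, 22.2, 9.99 and 19.0 CPM in Irx5KO 1, Irx5KO 2, WT 1 and WT 2. It was at 30.1, 50.8, 43.1 and 71.4 CPM in Irx5KO 3, Irx5KO 4, WT 3 and WT 4, all above the 20.2 to 24.5 CPM of P18. For Dlx3 the same 2 sets of 4 libraries held 24.6, 23.1, 12.7 and 22.5 CPM and 38.4, 35.1, 31.4 and 80.2 CPM, against 13.5 to 27.6 CPM at P18. In both genes the 4 libraries exceeded all of the other 10, as they did for 2 of the 10 genes and for 0.915% of all genes tested. Between labelled genotypes the log2 differences of Hoxc13 were 0.41 ± 0.38 and -0.50 ± 0.38 in the pairs, and those of Dlx3 were 0.44 ± 0.42 and -0.60 ± 0.42, with the differences between pairs at -0.91 ± 0.54 and -1.04 ± 0.59 (adjusted p = 0.468 and 0.44, edgeR).

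A comparison of P20 libraries 3 and 4 with libraries 1 and 2, averaged over the labels, was added after these values were seen. It called 5 of the 10 genes, all higher in libraries 3 and 4, where it called 17% of all genes and 3.39% as higher. Hoxc13 was higher by 1.52 ± 0.28 on the log2 scale (adjusted p = 0.00399, edgeR) and Dlx3 by 1.14 ± 0.30 (adjusted p = 0.0201, edgeR). The others were Sostdc1 (1.41 ± 0.35), Sox4 (0.90 ± 0.25) and Gata3 (0.87 ± 0.21), with adjusted p-values of 0.0255, 0.0256 and 0.0161 (edgeR). For Sostdc1 and Sox4 the labels went opposite ways: under WT the means of libraries 3 and 4 were below those of libraries 1 and 2 (119 against 320.1 CPM for Sostdc1 and 40.8 against 53.3 CPM for Sox4), and under Irx5KO they were above. The 4 libraries lay above libraries 1 and 2 without overlap for 3 of the 10 genes, Hoxc13, Dlx3 and Gata3, and for 3.73% of all genes. The Gata3 levels were 183 and 199.6 CPM in Irx5KO 3 and 4 and 132 and 165 CPM in WT 3 and 4, against 65.2 to 120.0 CPM in libraries 1 and 2. Gata3 overlaps 2 genes on the opposite strand and 1 on its own, and Sox4 and Runx1 each overlap 1 on the opposite strand. Whether reads were counted by strand is not given in the sources used here.

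Hoxc13 passed this comparison with every library left out in turn (1.32 to 1.79). Dlx3 failed without P20 Irx5KO 1, Irx5KO 2 or WT 4 (0.74 to 1.41 over all omissions), Gata3 without Irx5KO 2 or WT 4 (0.72 to 1.05), Sox4 without Irx5KO 1, Irx5KO 4, WT 1 or WT 3 (0.72 to 1.07), and Sostdc1 without P18 Irx5KO 2 or without any P20 library other than Irx5KO 1 and WT 3 (0.89 to 1.72). Markers of other cells moved with the pairs, in a comparison that called 3354 of 24592 genes lower. The summed level of 10 T cell and innate lymphoid genes was 81.2 to 199 CPM in libraries 3 and 4 and 321 to 910 CPM in libraries 1 and 2, with 6 of the 10 called lower, and Thy1 and Rora were the most abundant. The summed level of endothelial genes was 4.25 to 13.1 against 14.2 to 54.3 CPM, with 5 of 7 called lower, and the receptor share at most 0.149% against 0.334% to 2.36%. Their part in the higher levels of the 5 genes was not tested. The median over all genes tested was -0.928 in this comparison but 0.025 over genes with a mean of at least 8 CPM, and that of the 10 was 0.75.

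Relatives and partners of the 10 genes were read in the same comparisons. Of 36 listed genes, 34 were tested, 0 passed in libraries 1 and 2 and 2 were lower under the Irx5KO label in libraries 3 and 4: Lrp4, the membrane receptor to which Sostdc1 binds (-1.28 ± 0.30), and Foxn3 (-1.12 ± 0.28). Lrp4 was the only one called for the difference between pairs, at -1.90 ± 0.42 (adjusted p = 0.0148, edgeR), against 5.66 for Sostdc1. In libraries 3 and 4 relative to 1 and 2, 0 of the 34 were called higher and 7 lower, where 3354 of all 24592 genes were lower. Among the 7 were Dlx6 (-4.43 ± 0.58), Runx2 (-2.74 ± 0.60), Runx3 (-2.17 ± 0.49) and Hoxc9 (-4.80 ± 1.01). Dlx6 and Hoxc9 also reached 186 and 91.2 CPM in P18 WT 2 and 101 and 152 CPM in P20 WT 2, libraries with a large receptor share. The partners of Runx1 and Vdr were well expressed, with Cbfb at 33.8 to 102 CPM and Rxra at 185 to 368 CPM, and neither was called in the P20 pairs.

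Other genes of the BMP pathway were read beside Sostdc1. Of 27 listed, 1 passed in libraries 1 and 2, Gdf10 (-2.58 ± 0.35, adjusted p = 0.0022, edgeR), a ligand of the family. In libraries 3 and 4, 4 passed: Gdf10 was higher under the Irx5KO label (1.23 ± 0.33) and the antagonist Nog (-3.29 ± 0.50), the target gene Id1 (-1.51 ± 0.35) and the ligand Bmp2 (-1.56 ± 0.39) were lower. For the difference between pairs, 5 passed, with Gdf10 at 3.82 ± 0.48, Nog at -4.96 ± 0.67, Id1 at -3.09 ± 0.50 and Bmp2 at -2.69 ± 0.54. Sostdc1 and Gdf10 thus ran one way across the P20 libraries, and Nog, Id1 and Bmp2 the other way. Id1 was at 41.1 and 67.1 CPM in WT 1 and 2 and at 155 and 169 CPM in Irx5KO 1 and 2. In the other pair Id1 was at 90.7 and 175 CPM in Irx5KO 3 and 4 and at 299 and 457 CPM in WT 3 and 4. The median over the list was 0.302 in libraries 1 and 2 and -0.635 in libraries 3 and 4 (-0.435 with genes at 0 counts in an arm set at their bound). Over all genes tested the medians were -0.341 and 0, and over those with a mean of at least 8 CPM -0.049 and -0.005.

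Gli1 and Ptch1, Hedgehog targets in the hair germ, had the order of Sostdc1. Gli1 was at 40.6 and 55.5 CPM in Irx5KO 1 and 2 against 176 and 213 CPM in WT 1 and 2, and at 318 and 251 CPM in Irx5KO 3 and 4 against 61.5 and 80.5 CPM in WT 3 and 4. Its difference between the pairs was 4.02 ± 0.38 (adjusted p = 9.38e-06, edgeR), and that of Ptch1, the Hedgehog receptor and target, 4.04 ± 0.46 (adjusted p = 6.95e-05, edgeR). Of 10 listed germ markers, 2 passed in libraries 1 and 2, Gli1 and Ptch1, both lower under the Irx5KO label. In libraries 3 and 4, 4 passed, with Gli1 and Ptch1 higher and Wnt10b and Fgf5 lower. The list median was -0.29 in libraries 1 and 2 and -0.556 in libraries 3 and 4, the latter opposite in sign to Gli1 and Ptch1. The ligand gene Wnt10b was not detected in Irx5KO 3 and 4 and had 71 counts in WT 3 and 4, at least 17.0-fold lower against a floor of 3 counts over the pair. Shh itself stayed at or below 8.83 CPM in every library.

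Among 32 other transcription factors of the follicle, 0 passed in libraries 1 and 2 and 4 in libraries 3 and 4, with medians of 0.136 and -0.254. Bcl11b was higher under the Irx5KO label (1.58 ± 0.30) and Klf4, a factor of differentiating keratinocytes, was lower (-1.53 ± 0.34). Foxq1 and Elf5 had 0 counts in Irx5KO 3 and 4 and were at least 36.1-fold and 13.7-fold lower than in WT 3 and 4 against the same floor. For the difference between pairs 7 passed, 2 in the direction of Sostdc1 and 5 in the opposite one. Bcl11b led them, at 2.85 ± 0.42 (adjusted p = 0.000651, edgeR). It was at 155, 248, 328 and 218 CPM in WT 1, WT 2, Irx5KO 3 and Irx5KO 4 and at 72.5 to 109.9 CPM elsewhere, so that its order over libraries was close to that of Sostdc1.

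Genes that Hoxc13, Foxn1, Dlx3 and Gata3 are known to act on, the structural genes of the shaft and the inner root sheath, were mostly near 0. Of 26 listed, 24 were tested. The hair keratin Krt85 had no entry under that name among the summed genes, so its level is not known. The 11 other hair keratins of the list did not exceed 8.28 CPM (Krt32) in any library. Tchh, Krt75 and Lgals3, which are also expressed outside the shaft, made up most of the summed level of 161 to 999.9 CPM. For the difference between pairs 4 passed, all opposite to Sostdc1: Lgals3 (-3.27 ± 0.49), Tchh (-2.62 ± 0.47), Krt75 (-2.18 ± 0.55) and Dsg4. In libraries 3 and 4 relative to 1 and 2, where Hoxc13 and Dlx3 were higher, 0 of the 24 were called higher and 1, Krt26, lower. Of 12 genes known as vitamin D targets in other tissues, 11 were tested. Within the P20 pairs and for the difference between them, Cyp27b1, the enzyme that makes the active ligand of Vdr, was the only one to pass, at 4.88 ± 0.99 in libraries 3 and 4 and 7.28 ± 1.32 for the difference between pairs, from levels of 0.433 to 15.7 CPM. In libraries 3 and 4 relative to 1 and 2, 2 of the 11 were called lower, Calb1 and Cd14.

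Genes with the most similar pattern over the 14 libraries were named from 9981 genes with a mean of at least 8 CPM, by the Pearson correlation of log2 CPM. For Sostdc1 these were Dut (0.957), which keeps uracil out of DNA, Egln1 (0.950) and Parp1 (0.950), a DNA repair enzyme. Sox4 was closest to Sh3bgrl (0.902), the splicing factor Srsf1 (0.879) and Ppwd1 (0.875). The same gene, Creb1, came first for Hoxc13 (0.925) and for Dlx3 (0.890), a pair that shared its high libraries. Runx1 was closest to the keratinocyte factor Tfap2a (0.929), and Vdr to Cdh3 (0.855), which encodes P-cadherin of the hair germ. Gata3 was closest to the histone gene Hist1h4i (0.954), whose counts are shared with near-identical copies. For Msx1, Msx2 and Foxn1 the first genes were Zc3h4 (0.825), Mettl13 (0.901) and Nsun4 (0.934), and among the next for Foxn1 was the receptor gene Olfr147 (0.930). These values describe libraries that share codes, depth and receptor share, and carry no test.

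Transcripts of Runx1 were divided between its starts. The far start gives Runx1-201 and the near start Runx1-202, while Runx1-203 begins at base 92696125, downstream of the near start, and Runx1-206 is annotated as retaining an intron. Runx1-201 took 9.72% to 21.2% of the estimated Runx1 counts at P18 (median 17.1%) and 18.2% to 29.4% at P20 (median 22.6%). The share of Runx1-206 was 17.3% to 33.0% at P18 and 4.31% to 17.8% at P20, which overlapped only between P18 Irx5KO 2 and P20 Irx5KO 1. Under the labels the shares overlapped at both ages. For Msx1, the retained-intron transcript Msx1-202 held 19.9%, 35.4% and 37.5% of the counts in the P18 libraries labelled WT and 2.44% to 4.35% in those labelled Irx5KO, from 135 to 445 counts per library. At P20 its share was 0% to 10.7% in both groups. These shares come from the model by which reads are divided among transcripts, and they were not tested.

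**Figure D4:**
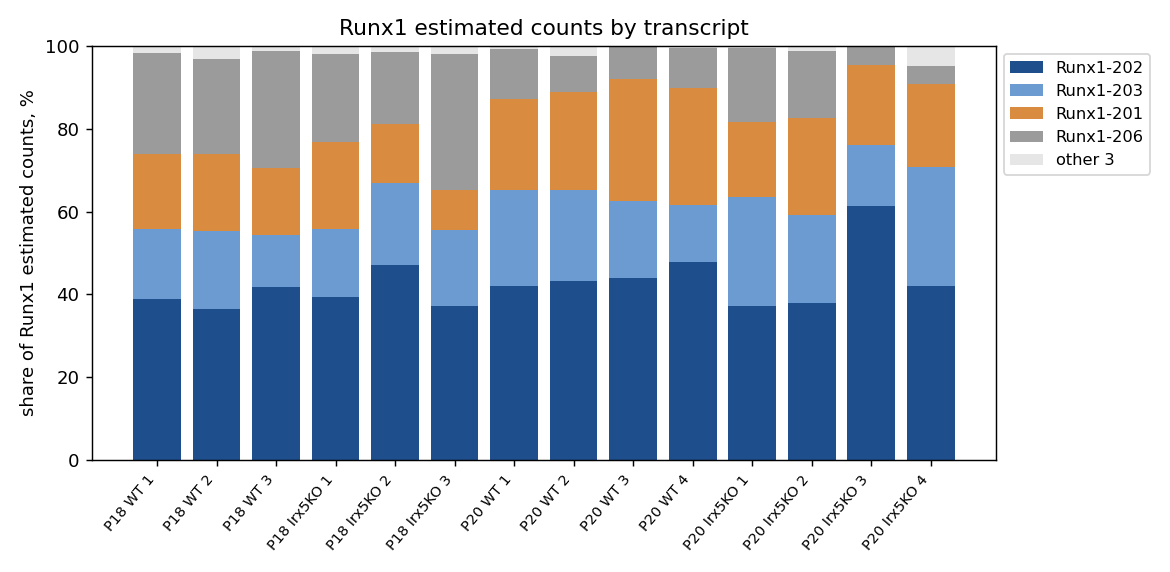
Share of the estimated Runx1 counts, in percent, held by 4 annotated transcripts and by the other 3 together in the 14 libraries, grouped by age and labelled genotype. The retained-intron transcript Runx1-206 holds 17.3% to 33.0% at P18 and 4.31% to 17.8% at P20.

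Age was compared last, because each age had its own codes, so that age and code cannot be told apart. In the WT label 0 of the 10 genes passed between P20 and P18 in the edgeR test, which called 0.195% of all genes, and 0 of the 10 had an unadjusted p under 0.05, while DESeq2 called 682 genes and 0 of the 10. In the Irx5KO label 0 of the 10 passed, where 1.57% of all genes did. There 3320 genes and 3 of the 10 had an unadjusted p under 0.05. The 3 were Sostdc1 (2.95 ± 1.11), Msx1 (1.08 ± 0.45) and Vdr (-0.48 ± 0.20). DESeq2 called 1390 genes and 1 of the 10, Sostdc1. Without the P20 libraries 3 and 4, 233 genes were called in the WT label, among them 1 of the 10. In the Irx5KO label 2 of the 10 then passed, but not Sostdc1. Its value there turned to -0.36 (adjusted p = 0.712, edgeR), as its level in Irx5KO 1 and 2, 43.8 and 29.0 CPM, was close to that of P18. The share of all genes called in that fit is not reported here. The count of 2 is therefore not read as a result about the 10 genes.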

How the data were processed

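RNA was sequenced as single-end reads, and per the labels' protocols reads were assigned with kallisto 0.46.2. Per the file headers the authors deposited an estimated count and a TPM value for each of 118489 transcripts. The submitters' processing notes name mm10 and DESeq2. Transcripts were summed per gene through GENCODE vM21 (116816 matched, the 1673 others held 1.19% to 2.59% of counts and were left out), and estimated counts were rounded to whole numbers. Genes passing filterByExpr (24592) were tested with edgeR 4.0.16 (R 4.3.3), robust quasi-likelihood test, on all 14 libraries with Benjamini-Hochberg adjustment over all genes at 0.05. Labelled genotypes within an age were compared with the code as a covariate, the P20 pairs with a term for each genotype and code, and the ages without the code. TMM factors were taken from genes with a mean of at least 8 CPM, because 3 libraries rich in olfactory and vomeronasal receptor genes moved the factors from all genes. CPM values use these factors, and TPM values are the deposited ones, summed. The SE is the log2 fold divided by the square root of F and is approximate. The range of depth over the libraries is given with the results. No 2 libraries of a group were alike within counting error (chi-square divided by its degrees of freedom at 61.2 to 437). Same-numbered P18 libraries deviated together from their group means (correlations 0.37, 0.15 and 0.29, each above a set minimum of 0.1). Numbers may thus pair libraries there, which the labels do not state, and Irx5KO 2 and WT 2 bear different codes. The main P18 test did not pair libraries by number. Alternatives were DESeq2 1.42.0, other scaling and filters, designs without the code, a replicate block, and libraries left out. The code was also run on simulated counts, with changes placed only in genes with a mean of at least 8 CPM. No result given here rests on that run.

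The 10 genes and the other gene lists were chosen with earlier results of these data known. The 10 genes, Mki67 and Irx5 were always named, with up to 4 genes of the smallest p from each other list and comparison and up to 3 most abundant markers of other cells. Ddx3y, Cbfb, Rxra, Shh and Krt32 were named after their values were seen. No protein sequences were used, and Hoxc13, Dlx3 and Sostdc1 had no promoter entry.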

Additional observations from a re-analysis of the deposited data

Results flagged for a closer look

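For Sostdc1 the difference between labelled Irx5KO and WT at P20 was not the same in the 2 pairs of libraries: the difference in libraries 3 and 4 minus that in libraries 1 and 2 was 5.66 ± 0.75 on the log2 scale (adjusted p = 0.00131, edgeR quasi-likelihood test), from -3.14 to 2.52. For Sox4 the same contrast was 2.58 ± 0.50 (adjusted p = 0.00592, edgeR), from -1.26 to 1.32. Both were singled out because the test of the difference itself passed, and in both the sign turned with the level of Irx5, which went against the labels in libraries 3 and 4.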

How the results depend on the processing

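The differences between the P20 pairs for Sostdc1 and Sox4 passed under every alternative that was run for them. Single genes had 277 values under alternatives other than leaving out 1 library at a time, these differences included. Of the 277, 266 kept direction and side of the threshold, 4 reversed, 3 were newly past it and 4 no longer passed. DESeq2 called 23 genes at P18, 104 at P20, 463 and 2647 in the P20 pairs, 2405 for their difference, 7297 for libraries 3 and 4 against 1 and 2, and 682 and 1390 for age in WT and Irx5KO, with 1 of the 10 genes in the last. With no filter on low counts the numbers were 183, 209, 668, 2100 and 2041 for P18, P20, the pairs and their difference, with 2 of the 10 in libraries 1 and 2. TMM over all genes left 0 and 101 genes for age in WT and Irx5KO and 1 of the 10 in libraries 3 and 4, as did the 1 CPM filter and the fit on P20 alone, where Sox4 was at 1.21, 1.32 and 1.27. Without P20 libraries 3 and 4, P20 had 119 genes with 1 of the 10 and age in WT 233 genes with 1 of the 10. Age in Irx5KO then had 2 of the 10, with the count over all genes not reported here. Sox4 was then at -1.26 over P20, and Sostdc1 at -0.36 for age in Irx5KO. Sox4 over P20 was at -0.03 with P20 alone, and Sostdc1 at 0.72 without the code. Without the 3 receptor-rich libraries, 0 of the 10 passed in libraries 1 and 2 (Sostdc1 at -2.88), and 2 genes for age in WT. The cause of these moves was not tested. Leaving out 1 library at a time gave 0 to 1 genes at P18, 28 to 255 and 415 to 1575 in the pairs, 669 to 1446 for their difference, 973 to 5595 for libraries 3 and 4 against 1 and 2, and 11 to 115 and 61 to 419 for age in WT and Irx5KO. Of the 10 genes it left 0 to 1 and 0 to 2 in the pairs and 2 to 5 for libraries 3 and 4 against 1 and 2. Over P20, Sox4 ran from -0.45 to 0.51 and Sostdc1 from -1.75 to 1.10, and Dlx3 in libraries 3 and 4 from -1.13 to 0.23. Where this left 1 library in an arm, that library is assumed to vary like the others. With the replicate number as a block, 0 genes passed at P18 and at P20, 200 and 1217 in the pairs, 1336 for their difference and 44 and 368 for age, and the block changed no call of the 10. Same-numbered P20 libraries had correlations of 0.04, 0.44, 0.17 and 0.31. The first lay under the minimum of 0.1, so the numbers were not taken to pair them. The lowest gene, Foxn1, rested on as little as 1 count.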

Other observations

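Target genes of BMP signalling were among those called higher in P20 libraries 3 and 4 than in libraries 1 and 2, averaged over the labels, the comparison that was added after values were seen. Of the 27 BMP genes, 5 were called higher and 4 lower. Of all 24592 genes tested, 833 were called higher and 3354 lower. Id4 was higher by 1.20 ± 0.17 on the log2 scale (adjusted p = 0.00123, edgeR), Id2 by 0.97 ± 0.18 (adjusted p = 0.00431, edgeR) and Id1 by 1.26 ± 0.25, although Id1 under the Irx5KO label was at 90.7 and 175 CPM in libraries 3 and 4 against 155 and 169 CPM in libraries 1 and 2. The ligand gene Bmp6 was at -1.93 ± 0.36 (adjusted p = 0.005, edgeR). Among the 32 other follicle factors 3 were called higher and 6 lower, and Tbx1 was higher by 1.01 ± 0.22 (adjusted p = 0.00886, edgeR).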
